A study of Mus musculus with 16 samples.

Results

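*Lcn2*, *Saa3*, *Lrg1*, *Hp* and *Lbp* encode secreted proteins of the acute-phase response, and *Slc22a17* encodes a cell-surface receptor for lipocalin 2, the product of *Lcn2*. These 6 genes were taken by symbol from the 55487 genes measured in mouse cortex, and each symbol matched 1 gene. The mice were WT C57Bl6 males, 2 months old, given LPS (2 mg/kg, i.p.), a bacterial agonist of TLR4, or PBS on 2 days in a row, and the cortex was harvested on day 3. Injections were given either at ZT1, 1 hour into the light phase, or at ZT13, 1 hour into the dark phase, to ask how time of day (TOD) affects the neuroinflammatory response. The 4 groups were ZT1 PBS (n = 3), ZT1 LPS (n = 5), ZT13 PBS (n = 3) and ZT13 LPS (n = 5), and total RNA was sequenced after ribosomal RNA depletion with KAPA RiboErase. Levels are in CPM, the reads on a gene for every 1000000 reads on all genes of the sample. Sequencing depth, worked out from the CPM of a single read, was 20251840 to 29112758 reads on genes. The labels number the samples within a group, each is taken here as 1 mouse, and p-values measure the spread between these samples. Groups follow the titles of the samples. The labels also carry a treatment entry, which names the other treatment for 12 of 16 mice. By qPCR of cortex the paper reports that LPS induced *Cybb*, and more so at ZT13. With groups by title, *Cybb* was higher with LPS here too, by log2 3.82 at ZT1 and 4.68 at ZT13. The tissue label was checked on the neuron markers *Snap25* and *Slc17a7*, picked after seeing the data, whose group means were 1220 to 1310 CPM and 1200 to 1360 CPM.

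The acute-phase response is a shift in secreted proteins that follows infection or injury, best known from the liver, where IL-6 family cytokines, IL-1 and TNF act through STAT3, C/EBP factors and NF-κB. Several of these proteins are also made outside the liver, in the brain by reactive astrocytes, endothelial cells and microglia, and *Lcn2*, *Hp* and *Lrg1* are also known as genes of maturing neutrophils. Lipocalin 2 limits bacterial growth by binding iron-carrying siderophores, and it can be taken up by cells through the receptor encoded by *Slc22a17*.

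*Lcn2* (ENSMUSG00000026822) lies on the minus strand of chr2:32384633-32388252 in GRCm38. In ZT1 PBS cortex its level was 0.197, 0.148 and 0.0421 CPM in replicates 1 to 3, which is 4, 3 and 1 reads, and in ZT13 PBS cortex it was 0.0759, 0.139 and 0.179 CPM, or 2, 3 and 4 reads. In ZT1 LPS cortex the 5 mice, in the order of their replicate numbers, had 326, 202, 165, 170 and 107 CPM. The 5 ZT13 LPS mice had 333, 308, 406, 418 and 278 CPM. *Lcn2* was therefore close to absent from the libraries of PBS-treated mice at either time and abundant in every LPS-treated mouse, and the PBS and LPS groups did not overlap. ZT1 LPS replicate 1 was the exception among the ZT1 LPS mice, since its level lay inside the range of the ZT13 LPS group while the other 4 lay below that range. The ratio of mean CPM between LPS and PBS was 1500 at ZT1, with a 95% counting interval of 763 to 3480 from 8 PBS reads, and 2660 at ZT13, with an interval of 1400 to 5810 from 9 PBS reads. These intervals cover counting error only, and they overlap widely, so the ratios give no order between the times. In bulk cortex a change in the number of cells that express a gene and a change in RNA per cell cannot be told apart, which applies to every level given here.

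*Saa3* (ENSMUSG00000040026, minus strand of chr7:46711998-46715700) encodes serum amyloid A3, the family member that mice make mainly outside the liver. Its level was 0.197, 0 and 0.126 CPM in ZT1 PBS cortex and 0.342, 0.231 and 0.314 CPM in ZT13 PBS cortex. These PBS levels rest on 7 reads at ZT1 and 21 reads at ZT13. All 3 ZT13 PBS mice were above the 3 ZT1 PBS mice, but the difference was not past the threshold (log2 fold change 0.40, limma adjusted p = 0.39), and the exact permutation test, which cannot go below 0.10 for 3 mice against 3, gave p = 0.10. In ZT1 LPS cortex *Saa3* was at 259, 49.0, 91.2, 181 and 39.2 CPM, a spread of 75.9% of the mean (SD). In ZT13 LPS cortex it was at 265, 295, 333, 357 and 203 CPM, a spread of 20.7%. The LPS levels of *Saa3* were thus high in each ZT13 mouse and ranged from low to high among the ZT1 mice, with replicates 1 and 4 highest and replicates 2 and 5 lowest. LPS and PBS groups did not overlap, and the ratio of their means was 1150 at ZT1 (counting interval 557 to 2860) and 985 at ZT13 (counting interval 644 to 1590).

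*Hp* (ENSMUSG00000031722, minus strand of chr8:109575128-109579172) encodes haptoglobin, which binds free hemoglobin. Its level was 0.247, 0.395 and 0.126 CPM in ZT1 PBS cortex and 0.152, 0.139 and 0.314 CPM in ZT13 PBS cortex. In ZT1 LPS cortex *Hp* was at 10.6, 1.79, 4.02, 6.55 and 1.68 CPM, and in ZT13 LPS cortex at 12.2, 11.2, 20.7, 18.5 and 7.66 CPM. The order of the ZT1 LPS mice was that seen for *Saa3*, with replicates 1 and 4 highest and replicates 2 and 5 lowest, and no PBS-treated mouse reached the lowest LPS-treated mouse. The ratio of the LPS mean to the PBS mean was 19.2 at ZT1 (counting interval 11.8 to 33.7, 16 PBS reads) and 69.7 at ZT13 (counting interval 41.6 to 128, 14 PBS reads). These counting intervals do not overlap, but they leave out the spread between mice, and with that spread the difference between the LPS responses was not past the threshold (interaction log2 1.72, standard error 0.59, limma adjusted p = 0.33).

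*Lrg1* (ENSMUSG00000037095, minus strand of chr17:56119678-56122001) encodes a leucine-rich glycoprotein that modulates TGF-β signaling in endothelial cells. It was detected without LPS, at 1.63, 2.07 and 1.47 CPM in ZT1 PBS cortex and 2.43, 2.50 and 2.06 CPM in ZT13 PBS cortex. After LPS it was at 14.2, 14.4, 9.89, 12 and 9.56 CPM at ZT1 and at 17.7, 20.2, 26.7, 22.9 and 16.8 CPM at ZT13. The 4 groups stepped up in the order ZT1 PBS, ZT13 PBS, ZT1 LPS, ZT13 LPS, and only the PBS groups touched, where ZT1 PBS replicate 2 was just above ZT13 PBS replicate 3. *Lrg1* was the only one of the 6 genes whose ZT13 LPS mice were all above its ZT1 LPS mice, a pattern that 1.55% of the 18859 tested genes shared in that direction. Its mean rose with LPS from 1.72 ± 0.312 CPM to 12 ± 2.28 CPM at ZT1 and from 2.33 ± 0.235 CPM to 20.8 ± 4.02 CPM at ZT13 (SD, n = 3 and 5 mice), which is 6.96 and 8.95 times the PBS mean.

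*Lbp* (ENSMUSG00000016024, plus strand of chr2:158306493-158332852) encodes LPS binding protein, which hands LPS to CD14. Its level was 1.92, 8.30 and 2.44 CPM in ZT1 PBS cortex and 8.77, 3.38 and 5.38 CPM in ZT13 PBS cortex. After LPS it was at 27.1, 20.5, 15.4, 8.82 and 17.0 CPM at ZT1 and at 18.1, 11.1, 18.2, 17.7 and 19.4 CPM at ZT13. The LPS-treated mice were above the PBS-treated mice of their own time, by a narrow margin at ZT1, where 8.82 CPM in LPS replicate 4 stood next to 8.30 CPM in PBS replicate 2. No step between ZT1 LPS and ZT13 LPS was seen, as the means were 17.7 ± 6.72 and 16.9 ± 3.31 CPM (SD, n = 5). *Lbp* varied more than *Lrg1* among ZT1 PBS mice, with an SD of 83.9% of the mean against 18.1%. The summed level of 6 choroid plexus markers (*Ttr*, *Kl*, *Folr1*, *Clic6*, *Kcne2* and *Otx2*) varied between the same mice, at 12.2, 915 and 19.4 CPM in ZT1 PBS replicates 1 to 3 and 967, 14.4 and 549 CPM in ZT13 PBS replicates 1 to 3. The PBS-treated mice with the most *Lbp*, ZT1 replicate 2 and ZT13 replicate 1, were also those with the highest choroid plexus sums. After LPS the same sums were 854, 11.9, 409, 17.8 and 556 CPM at ZT1 and 228, 28.2, 152, 189 and 585 CPM at ZT13. The lowest *Lbp* of each LPS group was in a mouse with a low sum, ZT1 replicate 4 and ZT13 replicate 2, while ZT1 LPS replicate 2 had 20.5 CPM of *Lbp* with the lowest sum of all. *Ttr* made up 89.7% of the sum, none of the 6 markers was at 0 throughout a group, and none was a DEG between LPS and PBS at either time by limma, where 0 had an unadjusted p under 0.05, although up to 5 were called lower at ZT13 among the alternative fits. The part of choroid plexus tissue in the *Lbp* levels was not tested.

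*Slc22a17* (ENSMUSG00000022199, minus strand of chr14:54906304-54913132), a member of the organic cation transporter family, was high and steady in every mouse. It was at 627, 615 and 592 CPM in ZT1 PBS cortex, 600, 603, 602, 558 and 582 CPM in ZT1 LPS cortex, 611, 601 and 652 CPM in ZT13 PBS cortex, and 593, 585, 574, 556 and 574 CPM in ZT13 LPS cortex. At ZT13 the LPS-treated mice were all below the PBS-treated mice, and at ZT1 the groups overlapped. The share of all tested genes that separated in this direction was not counted, so the separation carries no weight of its own. The receptor gene fell by 7.28% with LPS at ZT13 (log2 fold change -0.11, standard error 0.03, limma adjusted p = 0.031), where 9.4% of the tested genes were called lower. At ZT1 the difference was -3.65% (log2 fold change -0.05, standard error 0.04, limma adjusted p = 0.37), where 5.15% of the tested genes were called lower. Of 7 neuron markers 3 were lower beside it at ZT13, *Snap25* by log2 -0.09 (limma adjusted p = 0.040), *Slc17a7* by -0.18 (adjusted p = 0.0013) and *Cux2* by -0.22 (adjusted p = 0.0019). The other 4 were not called at ZT13, and none of the 7 was called at ZT1. The part of neuronal RNA in the decrease of *Slc22a17* was not tested. The decrease depended on scaling, at -0.17 with median-of-ratios factors (adjusted p = 0.0013) and at -0.03 with quantile normalization (adjusted p = 0.44). Leaving out any 1 of 3 mice also removed the call. Quantile normalization moved the median log2 fold change of all tested genes at ZT13 from 0.05 to -0.06, and relative to that median *Slc22a17* was at -0.16 before and 0.03 after, and at -0.16 with median-of-ratios factors.

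**Figure D1:**
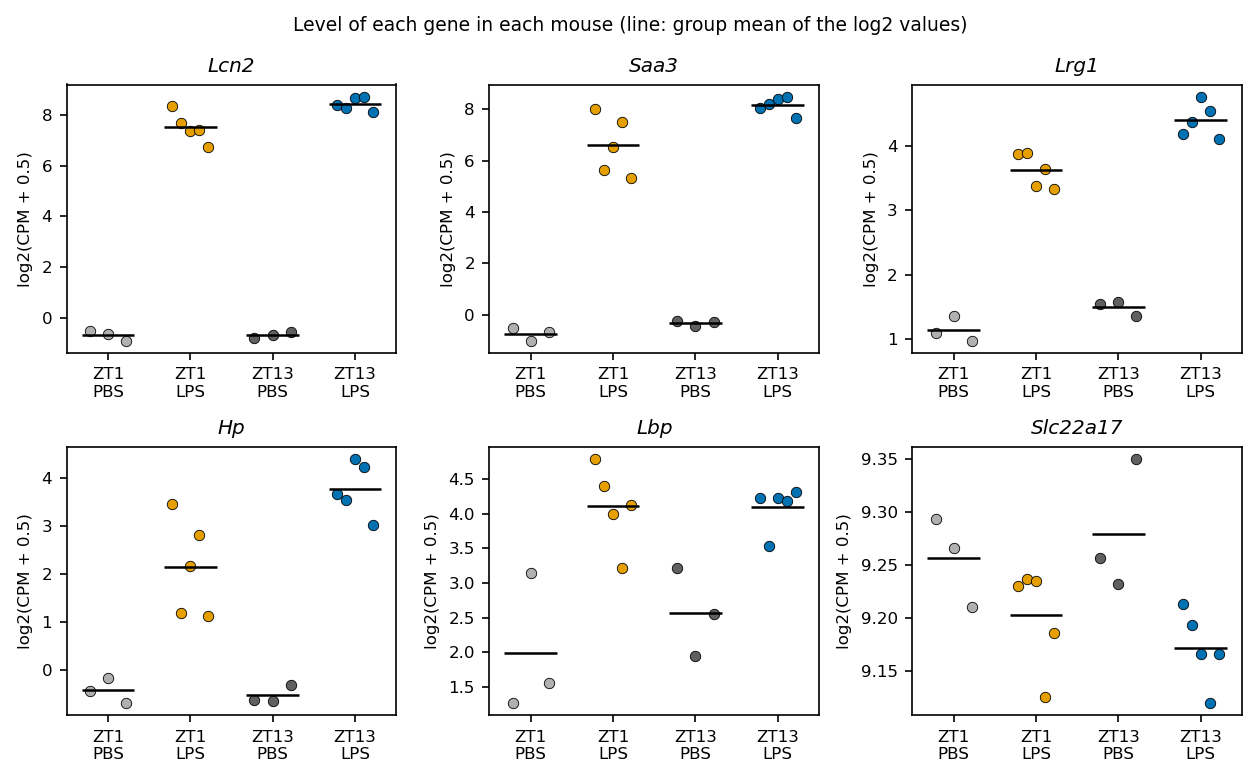
Level of each of the 6 genes in each of the 16 mice, as log2 of CPM + 0.5, by group, with a scale of its own for each gene; a point is 1 mouse and a line is the mean of the log2 values in a group. *Lcn2*, *Saa3*, *Lrg1*, *Hp* and *Lbp* were higher in every LPS-treated mouse than in the PBS-treated mice of the same time, and *Slc22a17* stayed between 556 and 652 CPM.

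Levels were compared between genes as CPM per kb of merged exons, since longer transcripts collect more reads. Merged exons take in every annotated exon, 2623 bases for *Lcn2*, 2606 for *Saa3* and 4517 for *Slc22a17*. They can be longer than the transcript expressed, by a margin that may differ between genes. The order of genes with close levels therefore depends on this choice of length. In ZT1 PBS cortex the order of mean levels was *Slc22a17* at 135, *Lrg1* at 1.23, *Lbp* at 0.874, *Hp* at 0.159, *Lcn2* at 0.0492 and *Saa3* at 0.0414 CPM per kb. The ranges of *Lrg1* and *Lbp* overlapped between mice, as did those of *Lcn2* and *Saa3*. In ZT13 PBS cortex *Saa3*, at 0.113 CPM per kb, stood above *Lcn2*, at 0.0501 CPM per kb, without overlap, and its range overlapped that of *Hp*, at 0.125 CPM per kb. The receptor transcript therefore exceeded that of its ligand by far in PBS-treated cortex. In ZT1 LPS cortex *Slc22a17*, at 130 ± 4.28 CPM per kb (SD, n = 5), remained above *Lcn2*, at 74.0 ± 31.0 CPM per kb, in 5 of 5 mice, although the highest *Lcn2* and the lowest *Slc22a17* were both at 124 CPM per kb. In ZT13 LPS cortex *Lcn2*, at 133 ± 23.3 CPM per kb, and *Slc22a17*, at 128 ± 3.08 CPM per kb, could not be ranked, with *Lcn2* the higher in 2 of 5 mice. *Saa3* had the third highest mean in both LPS groups, at 47.5 CPM per kb at ZT1 and 112 CPM per kb at ZT13, but its range overlapped that of the gene above it, with *Lcn2* the higher in 4 of 5 ZT1 mice and *Slc22a17* in 3 of 5 ZT13 mice. *Lrg1* followed at 8.53 and 14.8 CPM per kb. *Hp* and *Lbp* changed places between the LPS groups, *Lbp* at 3.67 and *Hp* at 3.07 CPM per kb at ZT1 with overlapping ranges, and *Hp* at 8.74 and *Lbp* at 3.50 CPM per kb at ZT13 without overlap.

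**Figure D2:**
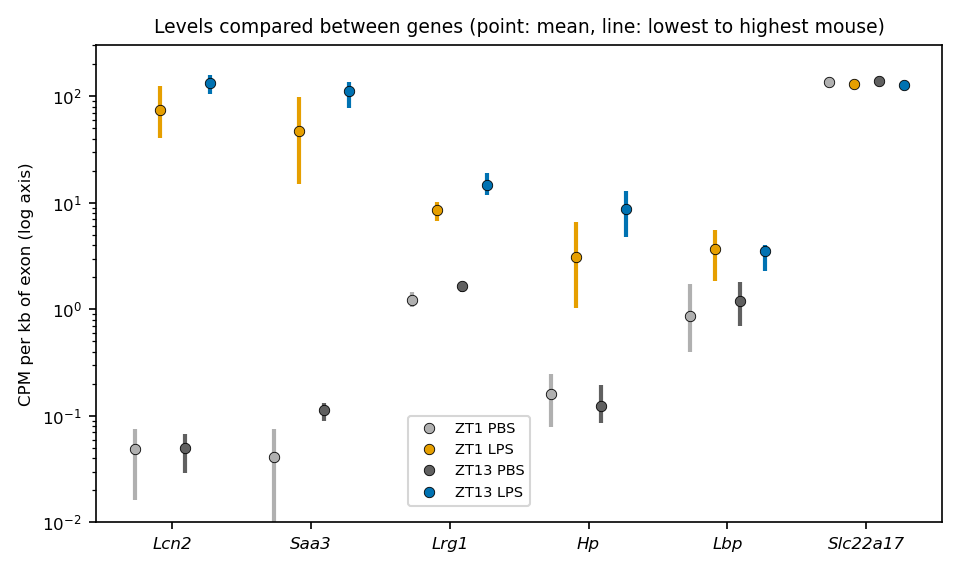
Levels of the 6 genes in the 4 groups as CPM per kb of merged exons on a log axis; points are group means and lines run from the lowest to the highest mouse, with the line for *Saa3* in ZT1 PBS reaching the edge because 1 mouse was at 0. In ZT13 LPS cortex the means of *Lcn2*, *Slc22a17* and *Saa3* were 133, 128 and 112 CPM per kb.

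LPS was compared with PBS within each time on log2(CPM + 0.5) with limma, over the 18859 genes that reached 1 CPM in 3 or more mice. DEGs are the genes with a Benjamini-Hochberg adjusted p under 0.05. All 6 genes entered the test. *Lcn2*, *Saa3* and *Hp* were below 1 CPM in all 6 PBS-treated mice and passed the filter only through the LPS groups. Some LPS-treated mice therefore had to be higher, and the number of genes called adds no support of its own. At ZT1, 5 of the 6 genes were DEGs and all 5 were higher after LPS, where 11.1% of the tested genes were called higher. At ZT13 the same 5 were higher, where 19.2% of the tested genes were called higher, and *Slc22a17* was the 1 lower. For these 5 genes the LPS and PBS groups did not overlap, as for 15.9% of tested genes in that direction at ZT1 and 20.9% at ZT13, and each exact permutation test gave p = 0.036, the smallest that 3 mice against 5 allow. By log2 fold change *Lcn2* was first and *Saa3* second of the 18859 genes at both times, on a scale where the pseudocount of 0.5 lowers the changes of genes with few reads. The log2 fold change of *Lcn2* was 8.19 at ZT1 (standard error 0.26, adjusted p = 2.3e-08) and 9.10 at ZT13 (standard error 0.12, adjusted p = 4.9e-15). That of *Saa3* was 7.33 at ZT1 (standard error 0.52, adjusted p = 4.9e-06) and 8.49 at ZT13 (standard error 0.14, adjusted p = 6.4e-14). *Lrg1* was in place 65 at ZT1 (log2 fold change 2.48, standard error 0.15, adjusted p = 2e-06) and in place 86 at ZT13 (2.90, standard error 0.13, adjusted p = 2.4e-09). *Hp* moved from place 54 (2.58, standard error 0.47, adjusted p = 0.0033) to place 15 (4.30, standard error 0.25, adjusted p = 2.2e-08). *Lbp* moved the other way, from place 116 (2.11, standard error 0.40, adjusted p = 0.0046) to place 465 (1.52, standard error 0.23, adjusted p = 0.00019). The calls of *Hp* and *Lbp* at ZT1 were lost when every gene with any reads was tested, with adjusted p-values of 0.062 and 0.077.

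**Figure D3:**
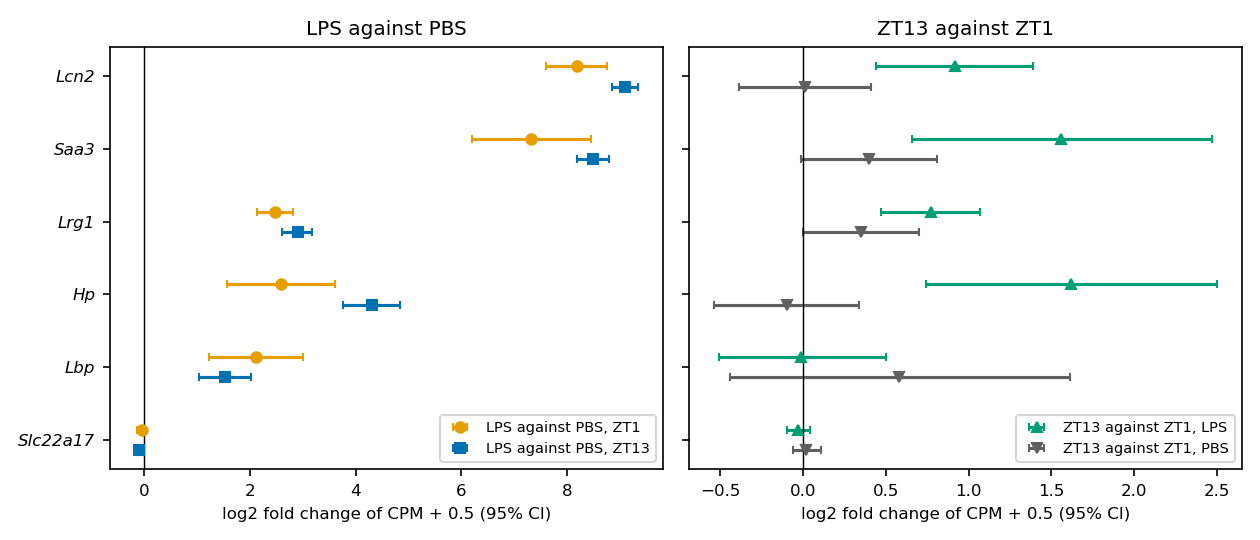
Log2 fold changes of CPM + 0.5 with their 95% confidence intervals from limma, for LPS against PBS at ZT1 and ZT13 and for ZT13 against ZT1 in LPS-treated and PBS-treated mice. *Lcn2* and *Saa3* had the highest log2 fold changes of all tested genes with LPS, and *Slc22a17* was at -0.05 and -0.11.

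The TOD comparison within LPS-treated mice asked whether the acute-phase genes were higher after injections at ZT13. *Lcn2*, *Saa3*, *Lrg1* and *Hp* had higher means at ZT13, by 1.80, 2.35, 1.73 and 2.85 times, and each of the 5 ZT13 mice was above the ZT1 median for all 4 genes. *Lbp* and *Slc22a17* showed no such step, with log2 fold changes of -0.01 and -0.03. None of the 6 genes was a DEG in this comparison with limma, in which 4 genes of the 18859 (0.0212%) were called, while 4 of the 6 had an unadjusted p under 0.05, as did 1998 of the 18859. The log2 fold changes were 0.92 for *Lcn2* (standard error 0.22, adjusted p = 0.14), 1.56 for *Saa3* (standard error 0.42, adjusted p = 0.18), 0.77 for *Lrg1* (standard error 0.14, adjusted p = 0.080) and 1.62 for *Hp* (standard error 0.41, adjusted p = 0.15). Exact permutation tests of mean CPM gave unadjusted p = 0.024 for *Lcn2*, 0.016 for *Saa3*, 0.0079 for *Lrg1* and 0.016 for *Hp*, where 0.0079 is the smallest p for 5 mice against 5. By log2 fold change *Hp* was in place 11 and *Saa3* in place 12 of the 18859 genes, *Lcn2* in place 75 and *Lrg1* in place 125. With all mice kept, *Lcn2*, *Lrg1* and *Hp* were called in 2 of the alternative fits, a single fit of all samples (adjusted p = 0.039, 0.025 and 0.047, limma) and sample quality weights (adjusted p = 0.021, 0.015 and 0.039, limma), in which 122 and 225 genes were called. When ZT1 LPS replicate 1 was left out, among fits leaving out each mouse in turn, 4 of the 6 genes were DEGs, *Lcn2* at 1.13 (adjusted p = 0.010), *Saa3* at 1.92 (adjusted p = 0.022), *Lrg1* at 0.83 (adjusted p = 0.017) and *Hp* at 1.95 (adjusted p = 0.021). In that fit the number of DEGs among all genes went from 4 to 345. Without ZT1 LPS replicate 2 only *Lrg1* was called (0.84, adjusted p = 0.046), and without any other single mouse none was.

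In PBS-treated mice none of the 6 genes was a DEG between ZT13 and ZT1 by limma, where 0.52% of the tested genes were, and 1 of the 6 had an unadjusted p under 0.05, as did 2543 of the 18859. This was *Lrg1* (log2 fold change 0.35, limma p = 0.049, adjusted p = 0.37, exact permutation p = 0.20). *Lcn2* and *Hp* were at 0.01 and -0.10, and *Lbp* was at 0.58 (standard error 0.46, adjusted p = 0.64). The difference between the LPS responses at the 2 times was tested as the TOD × treatment interaction over all 16 mice, in which 0.159% of the tested genes were called and none of the 6. Its log2 values were 0.91 for *Lcn2* (standard error 0.32, adjusted p = 0.35), 1.16 for *Saa3* (standard error 0.60, adjusted p = 0.58), 0.42 for *Lrg1* (standard error 0.22, adjusted p = 0.59) and -0.59 for *Lbp* (standard error 0.52, adjusted p = 0.80). Of the 6 genes 2 had an unadjusted interaction p under 0.05 by limma, *Lcn2* at 0.011 and *Hp* at 0.0089, as did 1745 of the 18859. Without ZT1 LPS replicate 1 the interaction of *Lcn2* was called (1.12, adjusted p = 0.040).

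To see which of the genes moved together between mice of the same group, levels in the 10 LPS-treated mice were taken as deviations from the mean of their time, and all 15 pairs of the 6 genes were compared. *Saa3* and *Hp* rose and fell together, with r = 0.96 (permutation p = 0.00033, adjusted over the 15 pairs 0.0049) and rho = 0.95 (permutation p = 0.0042, adjusted 0.050). Without the 2 mice farthest from the median of *Saa3*, ZT1 LPS replicates 1 and 5, r was 0.92, and it was 0.99 within ZT1 and 0.93 within ZT13. *Lcn2* and *Lrg1* had r = 0.78 (permutation p = 0.0039, adjusted 0.029) and rho = 0.84 (permutation p = 0.0066, adjusted 0.050), with r = 0.85 without the 2 mice farthest from the median of *Lcn2*, 0.82 within ZT1 and 0.86 within ZT13. The pair with the largest LPS responses, *Lcn2* and *Saa3*, had r = 0.73 (permutation p = 0.060, adjusted 0.22) and rho = 0.65 (permutation p = 0.063, adjusted 0.24), with r = 0.08 without ZT1 LPS replicates 1 and 5, 0.72 within ZT1 and 0.90 within ZT13. No other pair passed the threshold, and *Lbp* had r = -0.07 with *Saa3* (permutation p = 0.90, adjusted 0.96) and rho = -0.09 (permutation p = 0.82, adjusted 0.95).

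Among all tested genes, those most like each of the 6 by the same deviations over the 10 LPS-treated mice were read as a description. For *Lcn2* they were *Mfsd10* (r = 0.98), *Rpl38* (r = 0.97) and *Timp1* (r = 0.96), a metalloproteinase inhibitor gene. For *Saa3* they were *Itpripl2* (r = 0.99), *Cybb* (r = 0.98), which encodes the catalytic subunit of the phagocyte NADPH oxidase, and *Aoah* (r = 0.98), which encodes an enzyme that inactivates LPS. The nearest to *Hp* were *Ostf1*, *Mmp9* and the neutrophil gene *S100a9* (r = 0.98 each). *Lrg1* was nearest to *Zfp984* and the interleukin 1 receptor gene *Il1r1* (r = 0.97 each), followed by *Smn1* (r = 0.93). *Lbp* was nearest to *Triobp* and *Kirrel* (r = 0.94 each) and *1700085C21Rik* (r = 0.93), and *Slc22a17* to *Bdh1* (r = 0.95), *Mrps34* (r = 0.94) and *Apbb3* (r = 0.92).

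The sums of neutrophil markers and of monocyte and perivascular macrophage markers were highest in the LPS-treated mice with the most *Saa3* and *Hp* at each time. They did not follow the full order. In ZT1 LPS mice these sums were lowest in replicate 2, while *Saa3* and *Hp* were lowest in replicate 5. The summed level of 12 neutrophil markers was 76.7, 15.2, 32.1, 71.4 and 21.3 CPM in ZT1 LPS replicates 1 to 5 and 92.8, 80.1, 135, 133 and 52.2 CPM in ZT13 LPS replicates 1 to 5, against 4.18 to 5.62 CPM in PBS-treated mice. ZT1 LPS replicates 1 and 4 were the highest of their group and ZT13 LPS replicates 3 and 4 of theirs for this sum as for *Saa3* and *Hp*. Being highest in these mice was not particular to neutrophils. The monocyte and perivascular macrophage sum was 67.7, 19.9, 42.1, 57.3 and 29.9 CPM in ZT1 LPS replicates 1 to 5 and 63.0, 67.3, 69.3, 74.4 and 51.8 CPM in ZT13 LPS replicates 1 to 5, with the same mice highest. The astrocyte sum was also highest in ZT1 LPS replicates 1 and 4, at 1700 and 1510 CPM. At ZT13 it was highest in LPS replicates 3 and 2, at 1870 and 1860 CPM, with replicate 4 at 1820 CPM. The microglia sum was highest in ZT1 LPS replicates 4 and 5, at 311 and 285 CPM. In ZT13 LPS mice it was highest in replicates 2 and 1, at 268 and 261 CPM. Of the 7 neutrophil markers tested, 5 were higher with LPS at ZT1 and 7 at ZT13, where 11.1% and 19.2% of all tested genes were. All except *Csf3r* were below 1 CPM in every PBS-treated mouse and passed the filter only through the LPS groups. Some LPS-treated mice therefore had to be higher for these genes, although *Ngp* was not called at ZT1. None of the 7 was a DEG between the LPS groups with limma, where 6 had an unadjusted p under 0.05, as did 1998 of the 18859. Without ZT1 LPS replicate 1, 4 of them were called higher at ZT13, among the 345 DEGs of that fit. *S100a9* was the most abundant with 32.2% of the sum. *Cxcr2*, *Elane* and *Ly6g* were at 0 in all PBS-treated mice, and *Elane* had only 1 and 4 reads and *Ly6g* 6 and 8 reads over the ZT1 LPS and ZT13 LPS groups. *Mpo*, not tested, had lower means with LPS, 0.437 and 0.0940 CPM at ZT1 and 0.383 and 0.149 CPM at ZT13 for PBS and LPS. The part of any of these cells in the levels of *Lcn2*, *Saa3*, *Lrg1* and *Hp* was not tested. The 7 listed hepatocyte genes summed to at most 1.12 CPM in any mouse, none passed the filter, and *Fabp1* and *Serpina1a* were at 0 in all 16.

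**Figure D4:**
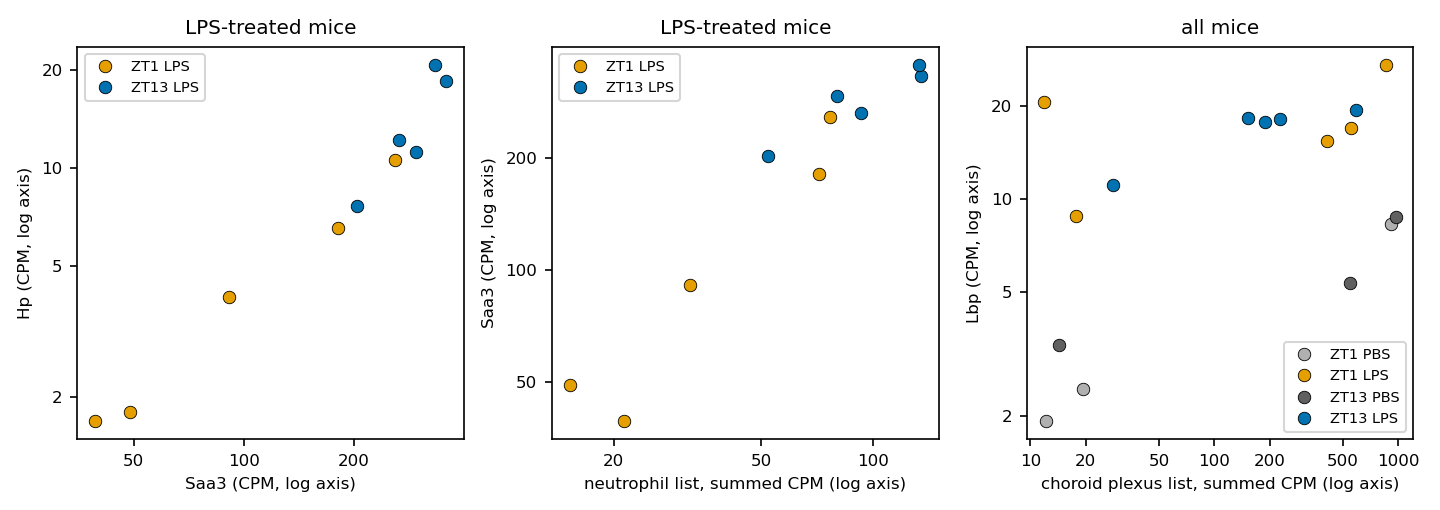
Values that moved with the genes between mice, on log axes: *Hp* against *Saa3* and *Saa3* against the summed neutrophil markers in the 10 LPS-treated mice, and *Lbp* against the summed choroid plexus markers in all 16 mice; each point is 1 mouse, in CPM. *Saa3* and *Hp* rose and fell together (r = 0.96 of the deviations from the time means), and ZT1 LPS replicate 2, with 20.5 CPM of *Lbp* and a choroid plexus sum of 11.9 CPM, stood apart from the other LPS-treated mice.

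Other markers of brain cells moved beside the acute-phase genes with LPS. All 6 markers of activated or venular endothelium were higher at both times, with medians of log2 1.70 at ZT1 and 1.88 at ZT13 against 0.04 and 0.05 for all tested genes. Of these 6 markers, *Selp* and *Sele* were below 1 CPM in every PBS-treated mouse and passed the filter only through LPS groups. Astrocyte markers were higher for 4 of 5 at both times, led by *Gfap*. Their sum went from 656 to 1400 CPM at ZT1 and from 679 to 1760 CPM at ZT13. *Gfap* alone went from 116 to 731 CPM at ZT1 and from 118 to 1010 CPM at ZT13. *Gja1*, the marker not called, had lower means with LPS, from 131 to 119 CPM at ZT1 and 129 to 119 CPM at ZT13. Microglia markers split, 4 of 6 higher and 2 lower at both times, with *P2ry12* and *Siglech* lower, where 5.15% and 9.4% of all tested genes were lower. Among the alternative fits the number of higher microglia markers at ZT1 went down to 1. Of monocyte and perivascular macrophage markers, 5 of 7 were higher at both times. Of these 5, *Ccr2* and *Ly6c2* were below 1 CPM in every PBS-treated mouse and passed the filter only through LPS groups. Endothelial markers were higher for 4 and lower for 1 of 6 at ZT1 and higher for 5 at ZT13, where 11.1% and 19.2% of all tested genes were higher, and 4 had a called interaction, as did 0.159% of all tested genes. In PBS-treated mice 2 of them, *Cldn5* and *Flt1*, were lower at ZT13, where 0.52% of all tested genes were called, and all 6 had an unadjusted p under 0.05. Among the alternative fits the interaction calls went down from 4 to 0 and the PBS calls from 2 to 0. Between the LPS groups 0 were called by limma, where 2 had an unadjusted p under 0.05, as did 1998 of the 18859. Of 4 oligodendrocyte markers, 1 was lower at ZT1 and 3 at ZT13, where 5.15% and 9.4% of all tested genes were lower. Meningeal fibroblast markers were higher for 1 of 6 at ZT1, and for 3 with 1 lower at ZT13. None of 5 erythrocyte markers was called by limma at either time, and 0 had an unadjusted p under 0.05.

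Other genes of the acute-phase response were read from lists of known family members. Of 24 positive acute-phase genes, 9 passed the filter, and 8 were higher with LPS at ZT1 and 9 at ZT13, with medians of log2 2.78 and 3.25, where 11.1% and 19.2% of all tested genes were higher. *C3* and *Ptx3* were below 1 CPM in every PBS-treated mouse, and *Cfb* reached 1 CPM in too few of them, so these genes too passed the filter only through LPS groups. *Serpina3n*, a protease inhibitor gene of reactive astrocytes, went from 4.49 ± 0.465 to 201 ± 65.9 CPM at ZT1 (log2 fold change 5.29, limma adjusted p = 5.5e-08) and from 4.78 ± 0.419 to 321 ± 19.1 CPM at ZT13 (5.93, adjusted p = 4.6e-16; SD, n = 3 and 5). Complement *C3* (5.19 and 6.60), *A2m* (3.20 and 3.96) and *Cp* (2.80 and 3.25) were also called at both times. The other 15 listed genes were below the filter, among them the liver-type genes *Crp*, *Apcs*, *Fgg* and *Saa4*, at or near 0. Some of the 15 had higher means with LPS at ZT13, such as *Hpx* (0.184 to 0.991 CPM) and *Orm2* (0 to 0.383 CPM). *Orm1* (0.0127 to 0.276 CPM) and *Itih4* (0.0561 to 0.54 CPM) did so too. Means of *Apcs*, *Fga* and *Fgb* were lower, and none of the 15 was tested. *Saa1*, a paralog of *Saa3*, was at 0.653 to 0.906 CPM in ZT1 LPS cortex and 0.377 to 0.664 CPM in ZT13 LPS cortex, so that its mean was lower at ZT13 (0.513 against 0.767 CPM) where that of *Saa3* was higher. *Saa2* had means of 0.102 CPM in ZT1 LPS cortex and 0.204 CPM in ZT13 LPS cortex, from 12 and 24 reads. *Saa1* rested on 95 and 61 reads in these groups and was not tested, and reads of *Saa1* and *Saa2*, which are near-identical, may not be separable. Of the negative acute-phase genes, which fall in liver, 3 of 7 were tested: *Rbp4* was lower at ZT1 (-0.53, adjusted p = 0.022), *Trf* was higher at ZT13 (0.76, adjusted p = 2.7e-07), and *Ttr* was not called. *Ttr*, also a choroid plexus marker, ranged from 5.57 to 834 CPM within ZT1 PBS and from 6.57 to 875 CPM within ZT13 PBS. With that spread a change of *Ttr* with LPS could not be judged.

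Among inducers and their receptors 10 of 16 were tested, and 7 were higher with LPS at ZT1 and 8 at ZT13. *Il1b* and *Tnf* were below 1 CPM in every PBS-treated mouse and passed the filter only through LPS groups. *Il6* itself was at or near 0, with 3 reads in all over the 5 ZT1 LPS mice and 1 read over the 5 ZT13 LPS mice, while its receptor genes *Il6ra* (0.86 and 1.29) and *Il6st* (0.27 and 0.34) were called at both times. *Il1b* had a mean of 1.97 CPM and *Tnf* a mean of 1.11 CPM in ZT13 LPS cortex, with log2 fold changes of 2.08 and 1.64. At ZT1 *Tnf* was not called (0.68, limma adjusted p = 0.056). Transcription factors and feedback genes were higher for 7 of 9 at ZT1 and 8 of 9 at ZT13, led by the STAT3 target *Socs3* (1.53 and 2.27) and *Cebpd* (2.11 and 1.74). Of 18 genes for binding partners 15 were tested, and 10 were higher at ZT1 and 13 at ZT13, where 11.1% and 19.2% of all tested genes were. *Fpr2*, *Tlr2* and *Ager* were below 1 CPM in every PBS-treated mouse, so they passed the filter only through LPS groups. *Cd14* and *Tlr4*, which receive LPS from LPS binding protein, had log2 fold changes of 1.62 and 1.07 at ZT1 and 2.40 and 1.24 at ZT13. *Mmp9*, whose product forms a complex with lipocalin 2, had 2.06 and 3.48, and the haptoglobin receptor *Cd163* had 1.07 at both times. The endothelial partners of *Lrg1*, *Eng* and *Acvrl1*, had 0.68 and 1.07 at ZT1 and 1.74 and 1.59 at ZT13. *Eng* was the only gene of these lists with a called interaction (1.06, limma adjusted p = 0.011). Among the alternative fits the called interactions ranged from 0 to 2 for the partners. They also ranged from 0 to 2 for the positive acute-phase genes and for the inducers and their receptors. *Lrp2*, another known receptor of lipocalin 2, had group means of 0.616 to 0.898 CPM and was below the filter. *Mc4r*, also among the listed partners, had group means of 1.40 to 2.79 CPM and was tested. It was not called with LPS at either time. Of the 13 other lipocalin genes 2 were tested, and *Apod* was higher at both times (2.53 and 3.38) while *Ptgds* was not called. In none of these lists was a gene called between ZT13 LPS and ZT1 LPS with limma. An unadjusted p under 0.05 was found for 5 of the 9 positive acute-phase genes, 1 of the 3 negative ones and 8 of the 15 partners. It was also found for 6 of the 9 transcription factors and feedback genes, 4 of the 10 inducers and receptors and 2 of the 2 lipocalin genes, as for 1998 of the 18859. Without ZT1 LPS replicate 1, 5 positive acute-phase genes and 4 partners were called higher at ZT13, among the 345 DEGs of that fit. That fit also called 3 transcription factors and feedback genes, 2 inducers and receptors, 1 negative acute-phase gene and 1 lipocalin gene higher, and 1 lipocalin gene lower.

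Promoter windows are shown because *Lcn2* and *Saa3* led the LPS response, to let the letters at their starts be read. RefSeq windows in GRCm38.p6, from 250 bases before to 50 bases after the annotated start, were found for *Lcn2*, *Saa3*, *Lrg1* and *Slc22a17*, 4 of the 6 genes; *Hp* and *Lbp* were not among them. They were searched on both strands for the C/EBP motif TTGCNNAA, the STAT motif TTCNNNGAA and the NF-κB motif, which 10.8%, 8.30% and 4.51% of all 32851 windows of 300 bases hold. *Lcn2* (chr2:32387690-32387989, minus strand) had 1 C/EBP match on the strand of the gene, at position -216 from the start, and *Saa3* (chr7:46715627-46715926, minus strand) had 1 C/EBP match on the opposite strand, at position -99. The starts used for *Lcn2*, *Saa3* and *Lrg1* lie inside the GENCODE intervals of these genes, and a match describes letters only. The windows of *Lrg1* (chr17:56121897-56122196) and *Slc22a17* (chr14:54913083-54913382) held none of these letter strings, and no match overlapped another motif. Capitals mark the matched letters in these sequences, written 5′ to 3′ on the strand of the gene.
Lcn2: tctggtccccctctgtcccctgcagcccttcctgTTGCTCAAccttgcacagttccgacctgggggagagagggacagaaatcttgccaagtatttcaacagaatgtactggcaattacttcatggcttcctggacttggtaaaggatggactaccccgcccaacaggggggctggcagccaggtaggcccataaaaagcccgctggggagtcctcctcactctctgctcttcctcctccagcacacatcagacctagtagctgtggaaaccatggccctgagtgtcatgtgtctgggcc
Saa3: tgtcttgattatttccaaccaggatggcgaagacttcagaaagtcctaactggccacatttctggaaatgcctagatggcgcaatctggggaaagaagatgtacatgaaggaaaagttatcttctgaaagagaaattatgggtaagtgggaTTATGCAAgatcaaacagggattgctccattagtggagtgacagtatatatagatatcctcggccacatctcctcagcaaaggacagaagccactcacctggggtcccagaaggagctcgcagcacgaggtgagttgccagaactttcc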

How the data were processed

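Cortex RNA of 16 mice was analysed. Per the submitters' processing notes, reads were processed with bcl2fastq and DRAGEN 4.0.3-8 on GRCm38; the gene counting settings are not given in the sources used here. The authors deposited 1 table of CPM with a column for each sample, and each column sums to 1000000. Its 55774 lines hold 55487 genes, since 287 lines repeat a gene with identical values and were removed. Coordinates and merged exon lengths came from GENCODE M21 (GRCm38), which holds 55227 of the identifiers. The CPM of 1 read was taken from the spacing of the lowest values. Of values up to 20 reads, 80.5% to 82.0% per sample were within 0.001 of a whole read, so counts were not recovered and no count test was run. The lowest, median and highest sample had 20251840, 22459623 and 29112758 reads, and intervals from reads are exact Poisson intervals.

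The test was limma 3.58.1 (R 4.3.3) on log2(CPM + 0.5), its prior variance following intensity, over the 18859 genes that reached 1 CPM in 3 or more of 16 samples. Adjustment was by Benjamini-Hochberg, with calls at an adjusted p under 0.05. A comparison of 2 groups used only those groups, and the interaction used all 4. The fit was tested on simulated data. Single genes were compared by two-sided exact permutation of mean CPM, and relations by 100000 permutations within time groups. Python 3.11.15, pandas 2.3.3, numpy 2.4.6, scipy 1.17.1 and matplotlib 3.10.9 were used. The alternatives tried were quantile normalization, pseudocounts of 0.1 and 1, no trend, a replicate block, genes with any reads, genes reaching 5 CPM, sample quality weights, median-of-ratios factors, a single fit of all samples, leaving out each mouse in turn, and the treatment field in place of titles. The genes and lists were chosen with earlier results of these data known. All 6 genes are named, with the 3 genes most like each, and from each list its largest changes and those needed to say what was not called or detected.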

Additional observations from a re-analysis of the deposited data

Results flagged for a closer look

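*Lbp* in ZT13 LPS replicate 2 was at 11.1 CPM, far from the other 4 ZT13 LPS mice, which were at 17.7 to 19.4 CPM. The same mouse had the lowest choroid plexus sum of its group, 28.2 CPM against 152 to 585 CPM. The relation was not tested.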

How the results depend on the processing

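The log2 fold changes of LPS against PBS kept their direction for *Lcn2*, *Saa3*, *Lrg1*, *Hp* and *Lbp* under every alternative except the treatment field. With the treatment field they were -4.38, -4.15, -1.21, -1.36 and -0.75 at ZT1 and -5.57, -5.13, -1.86, -2.76 and -1.15 at ZT13, *Slc22a17* was at 0.07 and 0.10, and limma called 0 of the 6 genes at either time. With all genes that had any reads, *Hp* (2.58, adjusted p = 0.062) and *Lbp* (2.11, adjusted p = 0.077) were not called at ZT1, which left 3 of the 6 genes. The decrease of *Slc22a17* at ZT13 was not called with any reads (-0.11, adjusted p = 0.092), with no intensity trend (-0.11, adjusted p = 0.13), with quantile normalization (-0.03, adjusted p = 0.44) or with a replicate block (-0.09, adjusted p = 0.19), it ranged from -0.13 to -0.07 when single mice were left out, and with median-of-ratios factors it was -0.17 (adjusted p = 0.0013). Quantile normalization gave 0.01 for it at ZT1. For ZT13 LPS against ZT1 LPS, sample quality weights called 3 of the 6 genes, *Lcn2* (1.02), *Lrg1* (0.87) and *Hp* (1.57), with *Lbp* at 0.13, and a single fit of all samples called the same 3 (0.92, 0.77 and 1.62), while the calls among all genes went from 4 to 225 and 122. Leaving out single mice gave 0.73 to 1.13 for *Lcn2*, 1.24 to 1.92 for *Saa3*, 0.68 to 0.84 for *Lrg1*, 1.36 to 1.95 for *Hp* and -0.23 to 0.16 for *Lbp*, and 0 to 4 of the 6 genes were called. In PBS-treated mice it gave -0.09 to 0.09 for *Lcn2*, -0.23 to 0.03 for *Hp*, -0.01 to 0.05 for *Slc22a17* and 0.23 to 1.16 for *Lbp*, whose interaction ranged from -1.16 to -0.23. Over all alternatives *Saa3* ranged from 0.23 to 1.06 in PBS-treated mice and from 0.51 to 1.52 for the interaction. With single mice left out the interaction of *Lcn2* ranged from 0.72 to 1.12, and at most 1 of the 6 genes was called for it. The cause of these shifts was not tested.

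Groups of 3 and 5 mice are small, and the PBS levels of *Lcn2*, *Saa3* and *Hp* rest on few reads. Whole-tissue RNA does not give the cell of origin. Tissue was taken 24 hours after the last injection, so the hour of harvest moved with that of injection and the 2 cannot be told apart. Counts were not recovered, so no count-based test was run.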
